A study of Mus musculus with 193 samples.

Results

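The 71 wild-type cells from mouse testes at postnatal day 3 (P3) were described as 1 group of single cells, out of 193 cells in the study. Every cell had passed a sort for GFP driven by the Id4-eGFP reporter, whose gate is not stated, and the members were all columns of the deposited expression table labelled wild type and P3. Their titles put 16 cells in a set A and 55 cells in a set B. What the letters stand for is not given in the sources used here, and neither are the animals, so the group counts as 1 sample and every SD below is a spread between cells. The other cells of the study are 53 wild-type cells from postnatal day 7 (P7) and 69 P3 cells labelled as Rhox10 knockout. They were also Id4-eGFP positive and are used here only to see whether spread between cells recurred. A level is the mean over the 71 cells of log2(RPM + 1), where RPM is the deposited read count scaled to the total of its cell. The strain is not given in the sources used here.

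Around birth the germ cells of the testis are prospermatogonia, cells that have stopped dividing. In the first days after birth they resume division, move to the basement membrane of the seminiferous cords and give rise to the first spermatogonia, some of which become the stem cells of sperm production. Id4, a transcription regulator of the inhibitor-of-DNA-binding family, marks the stem cell fraction in the reporter mouse. Ddx4, an RNA helicase, and Dazl, an RNA-binding protein that controls translation, are found in nearly all germ cells of this age. Lin28a, an RNA-binding protein that blocks let-7 microRNAs, is typical of undifferentiated spermatogonia. Fos is a transcription factor of the immediate early class, whose genes respond to growth factors and stress within minutes.

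The recovered totals ranged from 251530 to 10663507 reads per cell with a median of 4425188, and 5093 to 8062 genes were above 1 RPM in a cell (median 7072). Only a median of 514921 reads per cell lay on gene rows (25424 to 1201355), while RPM is scaled to the full total. Gene rows thus summed to a median of 105934 RPM per cell, 122502 in set A and 105434 in set B. An expression of 10 RPM stood for 2.52 reads in the shallowest cell and 44.3 reads in the median cell. A count of 0 allowed up to 11.9 RPM in the shallowest cell and 0.678 RPM in the median cell, taking 3 reads as the limit and counting error alone. In 17 cells this limit exceeded 1 RPM, so a count of 0 there does not establish a value of 1 RPM or less. Spike-in RNA made up a median of 11969 RPM in set A and 7465 RPM in set B.

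Ddx4 and Dazl were above 1 RPM in 71 of 71 cells, so the germ cell label held in every cell. Some cells also carried RNA of other cell types. Without Ctsl, which was above 1 RPM in all cells, 12 Sertoli cell markers were in the table. In 6 cells (1 of set A, 5 of set B) 7 to 10 of these 12 were above 1 RPM, with a mean level over the markers of 1.89 to 4.24. Another 2 cells of set B had 7 of 10 myoid or stromal markers above 1 RPM, with mean levels of 1.97 and 3.51. The other 63 cells had at most 4 Sertoli markers and at most 2 stromal markers, and mean levels of at most 0.91 and 0.67. Of the Sertoli markers, Clu was above 1 RPM in 40.8% of the 71 cells, Sox9 in 23.9% and Wt1 in 16.9%. Amh did not pass 1 RPM in any cell, and the rest passed it in 1.41% to 12.7%. Clu was above 1 RPM in 23 cells outside the 6. Dazl remained between 8.21 and 9.63 in the 8 cells, inside the range of the other 63 (8.13 to 10.58). Of 5 Leydig cell markers at most 2 were above 1 RPM in a cell: Cyp11a1, Cyp17a1 and Lhcgr in none, Star in 25.4% of the cells and Hsd17b3 in 8.45%. Of 5 leukocyte markers at most 2 were, with Ptprc in no cell and Cd68 in 25.4%. Of 8 endothelial markers up to 4 were above 1 RPM in a cell and 18 cells had 3 or more, with Flt1 in 69.0% of the cells and Emcn in none. Results below are given with all 71 cells, and the counts that lead are repeated without the 8 cells. How these markers came into the cells was not tested.

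Dazl (ENSMUSG00000010592.9, protein-coding, GRCm38 chromosome 17, 50279395 to 50293636, minus strand) had the highest level of all gene rows, 9.20 ± 0.53 (SD between cells, n = 71). Its values ran from 280.02 RPM in the lowest cell to 1531 RPM in the highest, with a median of 597 RPM. Every cell was thus far above the threshold of detection. Ddx4 (ENSMUSG00000021758.14, protein-coding, GRCm38 chromosome 13, 112598333 to 112652475, minus strand) had a level of 7.75 ± 0.55 (n = 71), from 60.2 to 421 RPM with a median of 230 RPM. Set A and set B had levels of 9.08 and 9.24 for Dazl and 7.67 and 7.77 for Ddx4, differences smaller than the spread between cells.

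**Figure D1:**
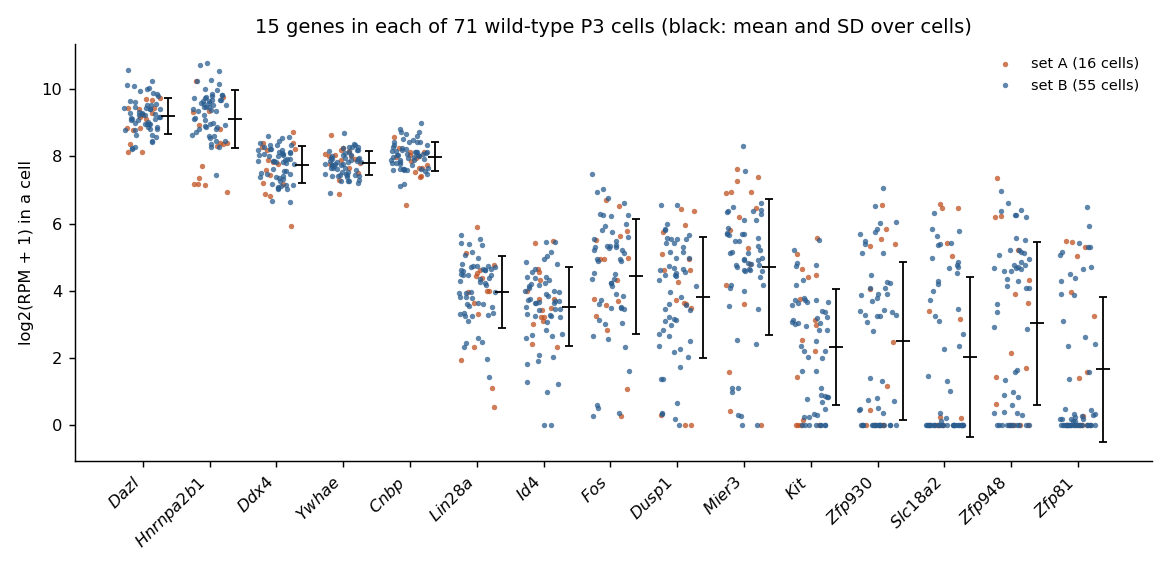
Each point is 1 of 71 wild-type P3 cells, with the gene on the horizontal axis and log2(RPM + 1) on the vertical axis. Colours mark the 2 lettered sets, and black bars give the mean and SD over cells. Dazl and Ddx4 form tight bands, while Zfp948 and Zfp81 have cells near 0 and cells above 4.

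The values are not corrected for transcript length, so RPM describes a share of reads. The 30 named genes with the highest levels took a median of 7.30% of the reads on genes. They included genes of RNA handling such as Hnrnpa2b1 (9.11 ± 0.86, n = 71) and Cnbp (7.99 ± 0.42). The nucleolar genes Npm1 (7.91 ± 0.65) and Ncl (7.70) were also among them. So were the transcription cofactor Sub1 (8.94 ± 0.71) and Ssr1 of the protein translocation channel (8.79). Chaperones were represented by Hsp90ab1 (8.48 ± 0.56) and the chaperonin subunits Cct8 (7.81) and Cct2 (7.33). Germ cell genes beside Dazl and Ddx4 were Tex15 (7.42 ± 0.87), which acts in the silencing of transposons, and Slc25a31 (7.19 ± 0.66), the ADP/ATP carrier of germ cell mitochondria. Hells, a chromatin remodeller needed for DNA methylation, stood at 7.30 ± 0.86, with 6.64 in set A and 7.49 in set B. Hnrnpa2b1 also differed by set, at 8.34 in set A and 9.33 in set B.

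Divided by the length of the longest annotated transcript, Dazl was again the highest, with a mean log2(RPM per kb + 1) of 7.63 ± 0.52 (n = 71). Rpph1, the RNA of ribonuclease P, followed at 7.57, but 73.0% of its exonic bases overlap Ccnb1ip1. On this per-kb scale Hnrnpa2b1 had 7.25, Actb 7.24, Npm1 7.21, Sub1 7.20, Rpl4 7.18 and Hsp90ab1 7.15. These 6 lie closer together than the spread of each between cells, so their order is not resolved. Cox4i1 of the respiratory chain (6.93) and calmodulin gene Calm2 (6.92) followed, and Ddx4 was at 6.17. Among the 20 highest per kb, 13 were also among the 30 highest by reads. Tex15, with a long transcript, fell to 4.42 per kb, and Malat1, a nuclear noncoding RNA, to 5.11.

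Of 19557 gene rows, 3121 (16%) were above 1 RPM in at least 90% of the cells, here called broadly detected, and 1142 were above it in all 71. Another 3317 never passed 1 RPM, and 7154 passed it in fewer than 25% of the cells. Without the 8 cells with other markers, 3076 were broadly detected. Members of the gene lists were read against this share. Of 13 pan germ cell genes, 12 were broadly detected. Of 18 genes of prospermatogonia and the piRNA pathway, which silences transposons in fetal and newborn germ cells, 14 were broadly detected, led by Fkbp6 (6.41) and Mael (6.30). All 21 translation genes and 24 of 25 oxidative phosphorylation genes were. Of 14 glycolysis genes 5 were, with Hk2 (5.58) and Aldoa (5.28) highest and Ldha at 2.59. Glycolysis and ribosomal genes have many pseudogene copies, and how reads with several alignments were counted is not given in the sources used here.

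To find genes that differ between these cells, the SD between cells was computed within each set and pooled. Since the SD falls with level, each gene's SD was set against the median SD of the genes nearest in level. The difference is called excess spread. Among 4791 genes with a level of at least 2, those in the top 10% of excess spread in set A and also in set B are called variable, and there were 198 (4.13%). Their median level was 3.38, against 3.24 for all genes tested. Their median share of cells above 1 RPM was 85.9%, against 94.4% for all genes tested. Most were thus present in most cells, and their spread includes the cells at 1 RPM or less. Leaving out the 8 cells gave 198 variable genes again, of which 165 were the same genes. The choice depended on the measure of spread: with the median absolute deviation in place of the SD, 71 of the 198 were variable.

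**Figure D2:**
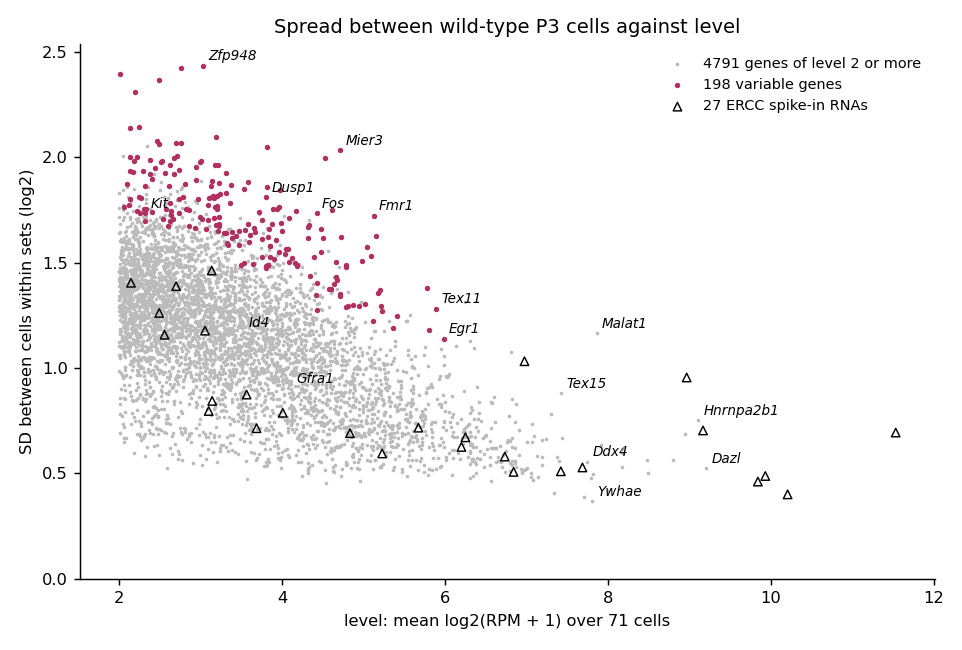
Each point is a gene, with its level on the horizontal axis and its SD between cells within sets on the vertical axis, in log2 units. Grey marks all 4791 genes tested, red the 198 variable genes and open triangles 27 spike-in RNAs. Of the 27 spike-ins, 7 lie above the median of genes of like level, and Mier3, Fmr1, Fos and Zfp948 lie at the upper edge.

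Spike-in RNAs, which are added in the same amount to every cell, give a yardstick of spread. Their RPM is a share of the reads of a cell, so it also depends on the other RNA in that cell. Of 27 ERCC spike-ins with a level of at least 2, 7 had an SD above the median of their nearest genes. Their median difference from it was -0.07, and the highest was 0.41. With the spike-ins scaled to the spike-in sum of each cell, 5 of 27 did, and the median difference was -0.16. The genes kept the deposited scale there, so this value is not comparable with -0.07. None of 26 spike-ins that were at 10 RPM or more in at least 25% of the cells met the on/off rule below. Since 0.053% of the genes at that threshold met it, this count cannot set the spike-ins apart from genes.

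A gene was called on/off when at least 25% of the cells had 1 RPM or less, at least 25% had 10 RPM or more, at most 15% lay between, and each set had at least 15% of its cells on either side. Of 3775 genes that were at 10 RPM or more in at least 25% of the cells, 2 met this rule (0.053%). Both encode zinc finger proteins and lie on chromosome 17. A wider set of 204 genes had at least 25% of the cells off and at least 25% on with no limit in between. The limit on cells between thus decided most calls, and the shape of the distributions was not measured. Off and on say what was read in a cell: a transcript lost before amplification also reads as off.

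Zfp948 (ENSMUSG00000067931.6, protein-coding, GRCm38 chromosome 17, 21567008 to 21588699, plus strand) ranged from 0 to 162 RPM with a median of 11.3 RPM. It was off in 25 cells (35.2%, exact 95% interval 24.2% to 47.5%), on in 37 (52.1%, 39.9% to 64.1%) and between in 9. The cells that were on had a median of 29.9 RPM. Its excess spread was the highest of the named variable genes, at 1.21 over all cells, 1.11 in set A and 1.22 in set B. Zfp81 (ENSMUSG00000003929.11, protein-coding, GRCm38 chromosome 17, 33329342 to 33358878, minus strand) ranged from 0 to 88.4 RPM. It was off in 43 cells (60.6%, exact 95% interval 48.3% to 72.0%), on in 19 (26.8%, 16.9% to 38.6%) and between in 9. The cells that were on had a median of 32.6 RPM. Its level of 1.65 kept it out of the test of spread. These intervals cover counting error only. The genes did not divide the cells in the same way, since 11 cells had both at 10 RPM or more, 26 had Zfp948 alone, 8 had Zfp81 alone and 26 had neither.

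Both genes still met the rule without the 8 cells, when 3 genes did, the added one being Slc18a2. With every cell thinned to 200000 reads on genes, Zfp81 met it (58.7% off, 30.2% on) and Zfp948 missed it with 15.9% between. With 25% of each set left out, the cells with the fewest detected genes, Zfp948 met it and Zfp81 missed it with 16.7% between. With up to 20% of cells between, 7 genes met the rule, named here after their values were seen: Zfp81, Zfp948, Zfp930, Zfp944, Slc18a2, Gdap2 and AI597468. Genes of this zinc finger family have close relatives in the genome, and the count of reads shared between copies is uncertain.

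Zinc finger genes were also frequent among the variable genes. Of 62 tested genes whose symbol begins with Zfp, 10 were variable, or 5.05% of the variable genes against 1.29% of the tested ones. The count was 12 when the 8 cells were left out. Zfp930 had 31 cells off, 27 on and 13 between, with a highest value of 132 RPM. Zfp936 had 25 off, 28 on and 18 between, with a highest value of 205 RPM. Zfp711, an X-linked transcription factor gene, was above 1 RPM in 56.3% of the cells. Zfp868, Zfp951 and Zfp266 had excess spreads of 0.75, 0.73 and 0.74.

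Other variable genes encode regulators of chromatin and transcription. Mier3 (ENSMUSG00000032727.14, GRCm38 chromosome 13, 111680979 to 111718596, plus strand), of a family of corepressors that bind histone deacetylases, had the second highest excess spread, 1.15. It ranged from 0 to 315 RPM with a median of 30.5 RPM. It was at 10 RPM or more in 58 cells and at 1 RPM or less in 7, so a small number of cells stood below a large, broad majority. Bmi1, a subunit of Polycomb complexes, had a level of 3.17 and was at 1 RPM or less in 21.1% of the cells. Sox11 (level 2.48) and Klf8 (2.47), both transcription factor genes, were at 1 RPM or less in 27 and 22 cells. Sox11 differed by set, at 3.67 in set A and 2.14 in set B. Kcnq1ot1, an imprinted noncoding RNA, had a level of 3.01 and an excess spread of 0.74.

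Slc18a2, which loads monoamines into vesicles, was the member whose excess spread changed sign with the median absolute deviation (1.05 by SD, -1.13). It was at 1 RPM or less in 38 cells and at 10 RPM or more in 22, where its median was 35.9 RPM. Slc5a3, a myo-inositol transporter (level 5.05), and Slc38a2, an amino acid transporter (3.82), had excess spreads of 0.76 and 0.72. Abca1, which exports cholesterol, had 0.76. Fmr1, an RNA-binding protein gene, stood higher, at 5.12, and ranged from 0.143 to 244 RPM. Ogt, the enzyme that attaches N-acetylglucosamine to proteins, had a level of 3.53 and an excess of 0.69. Casc5, which acts at the kinetochore, had 0.80.

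The variable genes shared sequence properties that the choice had not used. Their transcripts had a median GC content of 41.9% (195 of 198 genes matched to the annotation), against 47.4% for all tested genes. The median length of the longest transcript was 4520 bases against 3673. The tested genes were divided into 5 bins of equal size by GC content. In the bin with the lowest GC content, 113 of 953 genes were variable (11.9%), and in the highest bin 5 of 953 (0.525%). Within the lowest GC bin, divided again by length, 3.49% of the shortest transcripts and 12.6% of the longest were variable, so the share differed by length as well. When the 8 cells were left out, 112 and 6 genes were variable in the lowest and highest GC bins. The part of amplification or sequencing in this relation was not tested.

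Genes of the X chromosome, present as a single copy in male cells, were variable more often. Of 142 tested X-linked genes 25 were variable (17.6%), against 3.68% of 4620 genes on other chromosomes. In the lowest GC bin the shares were 31.6% of 57 X-linked genes and 10.6% of 896 others. In the next bin they were 13.8% of 29 and 3.58% of 923. The median excess spread was 0.11 on X and 0.00 elsewhere. Leaving out the 8 cells, 22 X-linked genes were variable. The named X-linked variable genes were Fmr1, Klf8, Zfp711, Ogt, Tex11 and Usp9x. On the Y chromosome 4 of 9 listed genes in the table could be tested and none was variable. With so few genes this count does not set Y apart from X. The median excess spread of the 4 was 0.22, and 3 of them were above 0. Among them Usp9y, a deubiquitinase gene, had a level of 3.93 ± 1.32 within sets and an excess spread of 0.22.

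**Figure D3:**
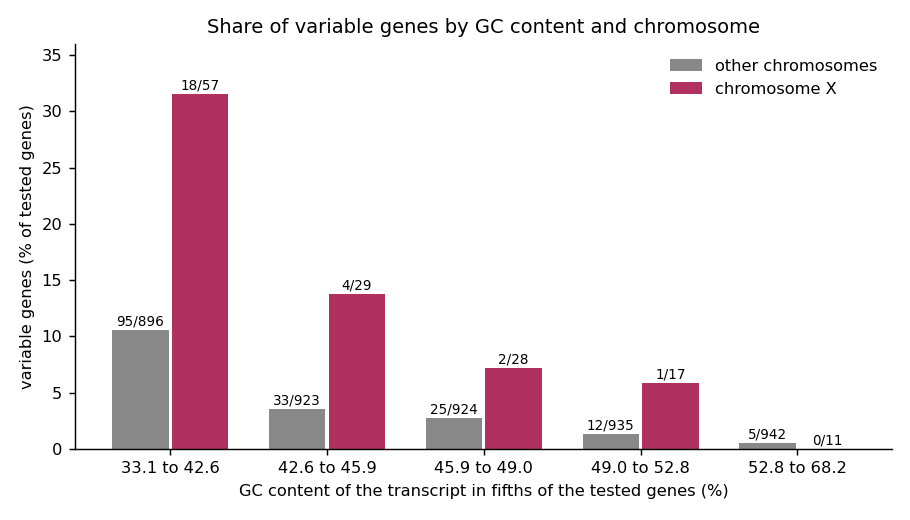
Bars give the percentage of tested genes that were variable in each of 5 bins of transcript GC content, for chromosome X and for all other chromosomes. Numbers above the bars are variable and tested genes. The share falls from the lowest to the highest GC bin on both, and X stands above the others in the first 4 bins.

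Immediate early genes had the highest median excess spread of the 19 lists, 0.40 over the 5 members with a level of at least 2. Of these 5, 3 were variable (Fos, Dusp1 and Egr1), where 4.13% of all tested genes were. With 5 tested members this count is not read as a property of the list. The other 19 of the 24 members had lower levels. Fos had a level of 4.42 ± 1.73 (n = 71), with a lowest value of 0.193 RPM, a median of 28.3 RPM and a highest of 177 RPM. It was at 10 RPM or more in 55 cells and at 1 RPM or less in 5. Dusp1, a phosphatase that switches off MAP kinases, had a level of 3.80 ± 1.80, was at 10 RPM or more in 45 cells and at 1 RPM or less in 8. Egr1, an early growth response factor, was present in every cell, from 2.12 to 369 RPM, with a level of 5.98 ± 1.17. Egr2 (3.89) and Btg2 (3.63) were tested and were not variable, while Jun (1.58), Junb (0.55) and Myc (0.10) had low levels. With the 8 cells left out, Fos and Dusp1 were still variable and Egr1 was not, nor was Egr1 with thinned reads.

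The cells with more Fos tended to have more Dusp1 and Fosb. Over the 71 cells, after centring within sets, Fos correlated with Fosb at r = 0.61 (0.50 in set A, 0.64 in set B), with Dusp1 at 0.47 (0.59 and 0.43) and with Egr1 at 0.40 (0.37 and 0.42). These are descriptions over cells that share library chemistry and differ in depth. Without the 8 cells the values were 0.59, 0.44 and 0.36. Fos and Dusp1 were both at 10 RPM or more in 40 cells, Fos alone in 15, Dusp1 alone in 5 and neither in 11. Fosb was low, with a median of 2.35 RPM, and in all 5 cells where it reached 10 RPM so did Fos. The median correlation among the 5 tested immediate early genes was 0.38, against 0.06 over all pairs of the 4791 tested genes. In the other lists it ran from -0.17 to 0.37, the highest being oxidative phosphorylation, followed by translation at 0.29. A value of this size was thus not particular to immediate early genes.

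The 250 bases before the starts of Fos, Fosb and Dusp1 are shown, read from RefSeq (GRCm38.p6), 5′ to 3′ in the direction of the gene. Whether they bear on the correlations was not tested. Capitals mark TGACG, the core of the site for CREB and ATF factors, on either strand (CGTCA), and TATAAA, the TATA box. The windows are chr12:85473640-85473889 on the plus strand for Fos, chr7:19310046-19310295 on the minus strand for Fosb and chr17:26508473-26508722 on the minus strand for Dusp1.
Fos: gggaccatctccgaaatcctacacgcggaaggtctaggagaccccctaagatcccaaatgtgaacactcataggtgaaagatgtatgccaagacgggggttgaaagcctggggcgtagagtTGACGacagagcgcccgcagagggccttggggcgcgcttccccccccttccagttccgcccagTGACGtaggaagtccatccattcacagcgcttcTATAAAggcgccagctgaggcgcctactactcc
Fosb: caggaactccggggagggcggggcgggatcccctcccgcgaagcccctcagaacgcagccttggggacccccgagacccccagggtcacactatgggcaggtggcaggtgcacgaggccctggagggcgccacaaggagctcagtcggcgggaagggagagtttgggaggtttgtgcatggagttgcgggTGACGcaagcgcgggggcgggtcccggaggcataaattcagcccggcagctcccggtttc
Dusp1: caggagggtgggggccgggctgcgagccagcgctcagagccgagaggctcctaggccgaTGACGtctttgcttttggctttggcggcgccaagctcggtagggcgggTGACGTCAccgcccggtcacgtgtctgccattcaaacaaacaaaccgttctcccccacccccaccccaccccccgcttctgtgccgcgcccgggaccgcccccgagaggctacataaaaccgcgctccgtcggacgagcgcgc
In Fos, TGACG stood at 129 and 66 bases before the start and TATAAA at 33. Fosb held TGACG at 60 bases. Dusp1 held it at 191, and at 143 with the reverse match at 140, where the matches overlap to form a palindrome. Of the 19 immediate early genes with a promoter sequence, 11 held TGACG in this window (57.9%), against 1286 of the 3570 tested genes with a sequence and 31.6% of 133 variable genes. Counted by window, which is not comparable with the shares of genes, 17.8% of all 32851 windows held TGACG and 12.4% TATAAA. A match describes letters in the window and shows no binding.

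**Figure D4:**
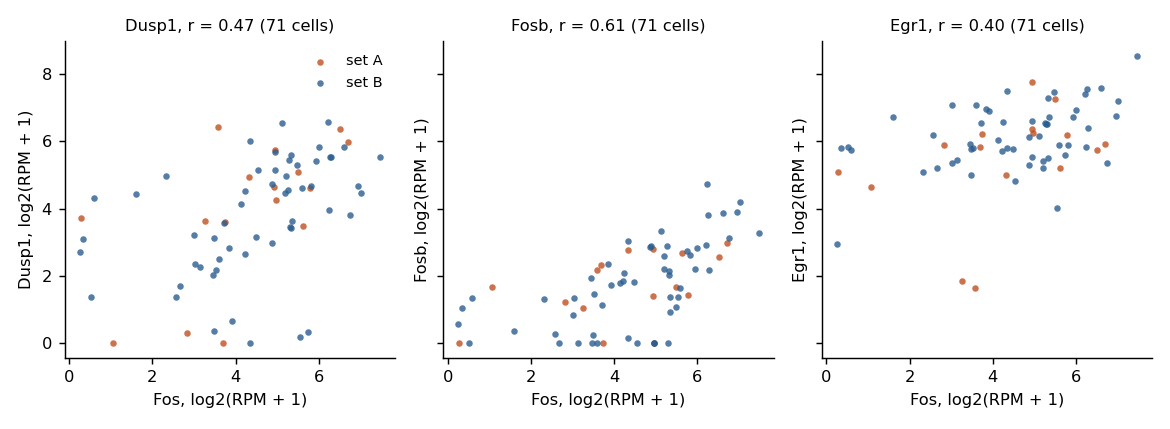
Each point is 1 of 71 wild-type P3 cells, with Fos on the horizontal axis and Dusp1, Fosb or Egr1 on the vertical axis, all as log2(RPM + 1), coloured by set. Cells low in Fos span a wide range of Dusp1, and the cells highest in Fosb are high in Fos.

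Of 18 stem cell genes, 9 had a level of at least 2 and 0 of these were variable, where 4.13% of all tested genes were. With so few members this count does not set the list apart. Id4 had a level of 3.53 ± 1.17 (n = 71), from 0 to 43.6 RPM with a median of 11.8 RPM, and its excess spread was 0.01. It was at 10 RPM or more in 41 cells and at 1 RPM or less in 3. All cells had been sorted on its reporter. Those 3 included a cell rich in Sertoli markers and a cell rich in stromal markers. The remaining cell had only 573669 reads in total. The GDNF receptor genes Gfra1 (4.11) and Ret (4.29), and Etv5 (4.10), a target of GDNF signalling, had excess spreads between -0.12 and 0.00. Cd9, a surface protein gene, was at 5.72 and above 10 RPM in every cell. Nanos2 (0.27), Pax7 (0.05) and Shisa6 (0.08) were near 0, with 11.3%, 1.41% and 4.23% of cells above 1 RPM. Eomes and T, both T-box factor genes, were at 10 RPM or more in 14.1% of the cells each. Across cells Id4 correlated at 0.27 with Etv5, 0.16 with Ret, 0.09 with Gfra1 and -0.11 with Kit, over 71 points that share depth and chemistry. In set A the value with Etv5 was 0.67 and in set B 0.14.

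Of 14 progenitor genes, 7 were tested and 0 were variable with all cells (1 without the 8 cells). Sall4, a pluripotency and spermatogonial factor gene, was highest, at 6.57 with no cell under 10 RPM. Lin28a had a level of 3.97 ± 1.07 (n = 71) and was at 10 RPM or more in 53 cells. Zbtb16 (3.37) and Dmrt1 (3.65) were above 1 RPM in 98.6% and 95.8% of the cells. Cdh1, the E-cadherin gene, had the highest excess spread of the 7, 0.50. Neurog3, a marker of committed progenitors, never passed 1 RPM.

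The next counts of variable genes stand beside 4.13% of all tested genes, and calls of 1 or 2 in lists this small are not read as a property of the list. Of 13 tested genes of differentiation and early meiosis, 2 were variable: Kit and Sycp2. Kit, the receptor that marks differentiating spermatogonia, ranged from 0 to 46.1 RPM with a median of 4.74 RPM. It was at 1 RPM or less in 24 cells, at 10 RPM or more in 21 and between in 26, so it did not meet the on/off rule. Cells with both Id4 and Kit at 10 RPM or more numbered 11, with Id4 alone 30, with Kit alone 10 and with neither 20. Sycp2, of the synaptonemal complex, was above 1 RPM in every cell, at a level of 5.22, as was the meiotic cohesin gene Smc1b (6.78). In the list of GDNF and FGF signalling 1 of 12 tested genes was variable, Dusp6, a phosphatase of ERK (level 4.04, excess 0.48). In the p53 and apoptosis list 1 of 7 was, Pmaip1, which encodes the death factor Noxa (4.39, excess 0.52). Of 7 tested X-linked germ cell genes 2 were, Tex11 (5.89) and Usp9x (4.87), while Nxf2 (6.82) had an excess spread of 0.05. With thinned reads Kit and Usp9x were no longer variable, and Sycp2, Tex11 and Usp9x were not when the 25% of cells with the fewest genes were left out.

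Of 26 genes of G2 and mitosis 18 were broadly detected. Among the tested G2 and mitosis genes, 20 of 25 had more spread than genes of like level, against 2364 of all 4791 tested genes. The median excess was 0.25, and 1 passed the rule for variable genes (Ect2, a regulator of cytokinesis, which no longer passed when the 25% of cells with the fewest genes were left out). Top2a (6.35), Cenpf (5.99) and Cenpe (5.31) were highest. The mean level over this list ranged from 1.66 to 5.50 per cell. Of 24 tested S phase genes 0 were variable and the median excess was 0.04, with Mcm2 (6.10) highest. The S phase and the mitosis means correlated at r = 0.17 over the 71 cells (0.36 in set A, 0.08 in set B).

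The sets differed in division genes. The median cell had a mean mitosis level of 3.08 in set A and 3.84 in set B, and a mean S phase level of 3.57 and 4.17. Of 4791 genes 165 (3.44%) differed by more than 1 between the set means, 52 higher in set A and 113 higher in set B. Among the 1380 genes with a level of at least 4, the kinesin genes Kif20b (3.74 in set A, 5.48 in set B) and Kif20a (3.48 and 4.95), the condensin gene Ncapg (3.28 and 4.95), the nuclear export factor Xpo1 (4.95 and 6.61) and Spcs3 (2.66 and 4.42) were lowest in set A against set B. Exons of Kif20a and Ncapg overlap other genes over 29.3% and 13.4% of their bases, and the strand setting of the counts is not given in the sources used here. Jmjd1c (5.70 and 4.73), Zcwpw1 (5.75 and 4.87), Ret (4.98 and 4.10), Hmox1 (5.29 and 4.41) and Zfp281 (5.04 and 4.13) were highest in set A against set B among the same 1380 genes, by less than 1 each. With letters of unstated meaning, the origin of these differences cannot be told apart, and set A also had more spike-in RNA per read.

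Among genes with a level of at least 6, the lowest excess spreads included those of the 14-3-3 gene Ywhae (-0.23, SD 0.37), Ncl (-0.20), Cct2 (-0.20) and Prrc2c (-0.20). Ywhae lay between 6.88 and 8.69 in all 71 cells. Scml2, a Polycomb-related gene of the germ line, was among the 12 most even (-0.15). The lists of translation and oxidative phosphorylation had median excess spreads of -0.22 and -0.15, with 1 of 20 and 3 of 24 tested members above 0. Their mean levels correlated over cells at r = 0.86 and also followed the number of genes detected (0.51 and 0.61). Heat shock genes were even too, with a median of -0.18 and 1 of 9 above 0. Of all 4791 tested genes, 2364 were above 0.

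**Figure D5:**
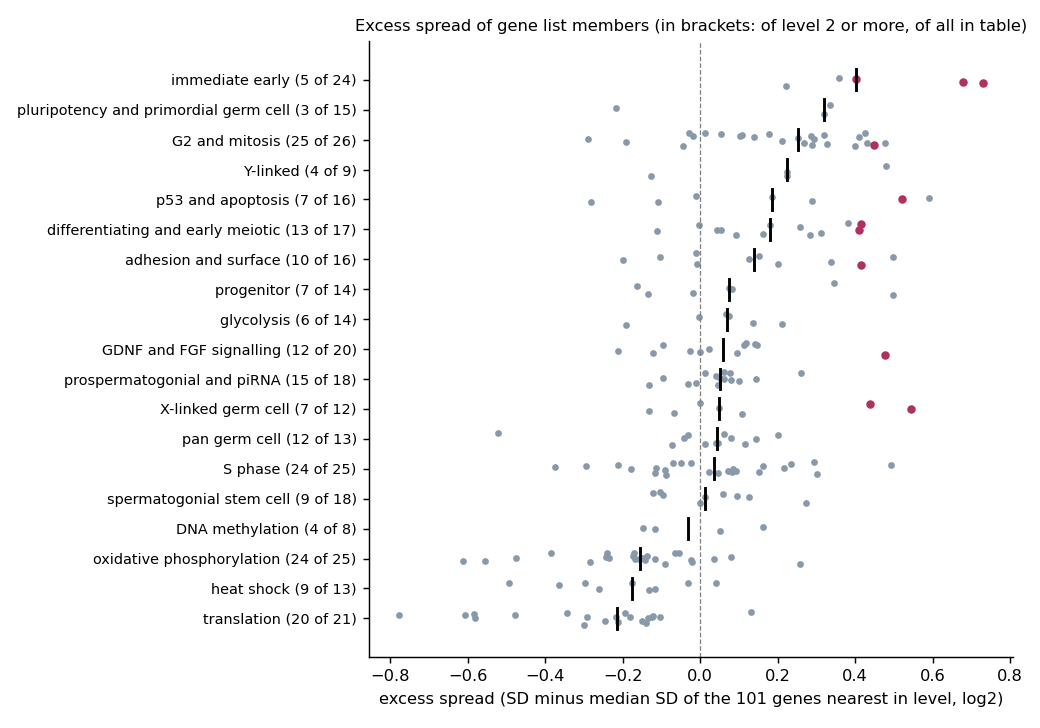
Each point is a list member with a level of at least 2, with its excess spread on the horizontal axis in log2 units and lists ordered by their median (black bar). Red points are variable genes. Immediate early genes are at the top and translation genes at the bottom, and the dashed line is the level-matched median, 0.

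Among the 100 variable genes with the highest excess spread there were 4950 pairs, and 0 had a correlation of at least 0.6. Over all tested genes 3623 of 11474445 pairs had one, so a count near 0 says little about the variable genes, and the rest of the 198 were not examined. The median was 0.04, and 90% of the pairs lay between -0.17 and 0.25. Fos with Dusp1 (0.47) was among the highest. As a partial correlation given the number of genes detected per cell, the highest value was 0.46. The highest plain correlation with the 8 cells left out was 0.53, and 0 pairs were linked there too.

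Spread recurred in cells that took no part in choosing the genes. In the 53 wild-type P7 cells, 174 of the 198 genes had a level of at least 2, and 95 of them (54.6%) were in the top 10% of excess spread, where 10.7% of all genes tested at both ages were. In the 69 P3 cells labelled as knockout, 112 of 183 (61.2%) were, against 10.3%. The median excess spread of the variable genes was 0.34 and 0.35 there. The on/off rule gave 11 of 4839 candidate genes at P7 and 4 of 4454 in the cells labelled as knockout. Neither Zfp948 nor Zfp81 was among them, from which nothing is read at such low shares. Zfp948 was at 10 RPM or more in 39.6% of P7 cells and 23.2% of cells labelled as knockout, and Zfp81 in 9.43% and 10.1%. Fos was at 10 RPM or more in 77.5% of the wild-type P3 cells, 78.3% of those labelled as knockout and 15.1% at P7. Fosb was above 1 RPM in 73.2%, 69.6% and 3.77%. With 1 sample in each group, these shares describe the cells and were not tested.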

How the data were processed

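The deposited table holds 19642 rows for 193 cells and is named TPM. In each column the deposited values are whole multiples of 1 step common to all genes, so they are RPM with no length term, made by the authors. Whole reads were recovered within 0.001 RPM for 99.99% to 100% of the values of a cell. HTSeq 0.6.1, STAR 2.3.0 and the build mm10 are listed, without their roles, per the submitters' processing notes. Per the labels' protocols, cells were sorted for GFP and amplified on a Fluidigm C1 with SMARTer chemistry, added hexamer primer and ERCC spike-ins.

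ERCC rows and Rn45s were left out. Levels, spread, on/off calls and correlations were computed with Python 3.11.15, numpy 2.4.6, pandas 2.3.3 and scipy 1.17.1 on log2(RPM + 1). Lengths, GC content and positions came from GENCODE on GRCm38, promoters from RefSeq. The labels name no animals, so no p-values were computed, and the code was tested on simulated data. Genes named are the markers, the 30 highest by level, the 20 highest per kb, the 12 most even, the 30 most variable, the on/off genes, leading members of each list and 5 genes each way between sets. Some genes that this rule names are not reported here. The members and lists were chosen with earlier results of these data known. Alternatives changed the scale, pseudocount, thresholds, depth, cells and measure of spread, and those that leave out the 8 marker-rich cells were chosen after seeing the data.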

Additional observations from a re-analysis of the deposited data

How the results depend on the processing

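The number of on/off genes depended most on the settings. It was 4 with cells rescaled to their gene rows, 0 with off at 0 only, 0 with on from 20 RPM, 70 with on from 5 RPM, 0 with at most 10% of cells between, 7 with at most 20%, 184 with no limit between, 107 in set A alone, 1 without the 25% of cells with the fewest genes and 1 with thinned reads. In set B alone it was 2. A minimum level of 1 gave 321 variable genes and one of 4 gave 48. Of the 198 variable genes, 130 were variable with a pseudocount of 0.1, 43 with a level of at least 4, 130 without the 25% of cells with the fewest genes and 71 with the median absolute deviation, under which the excess spread of Slc18a2 was -1.13. Broadly detected genes numbered 1455 with detection above 5 RPM. Linked pairs numbered 0 also as partial correlations and without the 8 marker-rich cells. Thinning left 15 cells of set A and 48 of set B. The causes of these changes were not tested. No paired analysis was possible because the results come from no test and the cells' numbers name no shared animal.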

Other observations

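Outside the variable genes, the highest correlations between cells belonged to neighbouring genes, named here after their values were seen. Over the 4791 genes tested for spread, 3623 of 11474445 pairs had a correlation of at least 0.6 over the 71 cells, which share chemistry and differ in depth. Of the 20 highest pairs, 15 lay at 0 bases from each other or overlapped. Myef2, a regulator of myelin gene expression, and Slc24a5, a cation exchanger, correlated at 0.97. Apex1, a DNA repair enzyme, and Tmem55b correlated at 0.93, and Chpt1 and the synaptonemal complex gene Sycp3 at 0.92. Of 1098 pairs within 10000 bases, 67 (6.10%) reached 0.6. Without a stated strand setting, reads of overlapping genes cannot be told apart.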
